A study of Sus scrofa with 6 samples.

Results

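The jejunum small RNA libraries of weaned and suckling piglets held, among 533 counted sequences, 166 candidate miRNAs that the study predicted at only 1 precursor and whose seed is that of a miRNA known in some species. They were chosen from the study's candidate table, which lists 317 predicted precursors. Of these, 175 sequences stood at 1 precursor and had a seed name, 8 were left out by name, and 1 of the remaining 167, SSC2_9608, was in the count tables only as a shorter start of 20 nt with 250 reads. The other counted sequences were 239 known pig miRNAs, 48 candidates at several precursors and 31 single-precursor candidates with no seed name. A further 11 were candidates left out by name, the 8 above among them, and 38 had no name.

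Piglets were Duroc x Yorkshire-Landrace crosses. The weaning group was taken from the sow at 25 d of age and given commercial feed, and the suckling group stayed with the sow. Jejunum was collected from weaned piglets on days 1, 4 and 7 after separation, giving W1, W4 and W7, and from suckling piglets at the same ages of 26, 29 and 32 d (S1, S4 and S7). Each library was 1 pool of RNA from 4 piglets, so a difference within a day has no replicate check, and the 3 libraries of a group differ in age.

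A miRNA is cut from a hairpin precursor and guides a silencing complex to messenger RNAs. Bases 2 to 8 from its 5′ end, the seed, do most of the pairing with a target, so miRNAs with the same seed are counted as a family even where the rest of their sequence differs. Short sequences can also share a seed without being related.

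The candidates near miR-378 are shown first because they hold the most reads. Capitals mark bases 2 to 8. ssc-miR-378-1 is the known pig miRNA, and the others are candidates named by the study with the chromosome of the draft assembly Sscrofa 9.2 in the prefix (SSCX is chromosome X).
ssc-miR-378-1: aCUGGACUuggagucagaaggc
SSCX_18747: cCUGGACUugaagucagaaggc
SSC18_5784: cCUGGACUuggugucagaag
SSC12_1507: cUGGACUUggagucagaag
SSC7_15044: cUGGACUUggaaucagaaggu
SSC8_16508: cUGGACUUguagucagaaggc
SSC4_12162: cUGGACUUggaguuagaaagc
SSC5_12449: cUGGAGUUggagucagcagg
Differences are written with the base of the more abundant sequence first, then the position counted from 1 at its 5′ end, then the base of the candidate. SSCX_18747 differs from miR-378 by A1C and G11A, SSC18_5784 by A1C and A12U, SSC7_15044 by G13A and C22U, SSC8_16508 by G11U, SSC4_12162 by C15U and G20A, and SSC5_12449 by C7G and A18C. SSC12_1507 has no difference and is bases 2 to 20 of miR-378 itself. A sequence that starts 1 base later has its seed moved by 1, so UGGACUU, the seed of miR-378b, is also what a miR-378 read lacking its first base shows.

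Some other candidates were close to other known pig miRNAs, each shown here after the miRNA it resembles.
ssc-miR-532-5p: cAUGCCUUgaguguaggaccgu
SSCX_18480: cAUGCCUUgaguguaggaca
ssc-miR-143-3p: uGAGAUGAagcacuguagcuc
SSC5_12871: gCUGAAGCacugcagcuc
SSC4_11765: uGGGAUGAagcacugugg
ssc-miR-22-3p: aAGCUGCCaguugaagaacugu
SSC13_2521: cAGCUGCCaguugaauaac
ssc-miR-339-1-5p: uCCCUGUCcuccaggagcucac
SSC1_6809: uCCCUGUCcuccaggugcucaca
SSCX_18480 differs from miR-532-5p by C20A. SSC5_12871 lies along the 3′ part of miR-143-3p with A5C and U16C, and SSC4_11765 along its 5′ part with A3G and A17G. SSC13_2521 differs from miR-22-3p by A1C and G16U, and SSC1_6809 from miR-339-1-5p by A16U.

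SSC14_3524 is shown with the miRNAs that have its seed, since it shares no more than that seed and a few further bases with them.
SSC14_3524: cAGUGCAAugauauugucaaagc
ssc-miR-130a: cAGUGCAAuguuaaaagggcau
ssc-miR-130b: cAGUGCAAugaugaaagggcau
The closest counted sequence to SSC14_3524 was the one deposited for miR-301, from which it differs by C5G, A10G and G11A. The reads that the study aligned to that miR-301 entry differ from the entry itself within the seed, so the seed of the deposited letters is not used here.

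Abundant candidates that were more than 2 substitutions from any more abundant counted sequence follow, and after them 3 low ones that the comparison of feeding groups returns to.
SSC1_7592: uAUUUGUGagaauucugauu
SSC5_12642: uGCGGAACcugcggauacg
SSC2_8994: uUUGUUGGcuccucugaaguga
SSCX_18278: uCCCCAGUggcuaaggucug
SSC7_16050: uCCGGUCCcuguucgggcgcca
SSC8_16670: uCUGUGAAcuagaaaccucugg
SSC2_9365: cCCUGCGUggcuucucugugca
SSC12_1105: gGAGAGAAcaccgucugaguggu
SSC5_12933: cGCGCGGGggcgcgccggg
SSC9_16901: uAGCUGUGgacaugaccaua
SSCX_18278 was the closest of the abundant ones to a known miRNA, with 3 substitutions over 20 bases of miR-27b-3p (U2C, A4C and U16G), of which the first 2 lie in the seed. The seed names of these candidates come from sorghum (sbi-miR6231-3p for SSC1_7592), rice (osa-miR1427 for SSC5_12642), chicken (gga-miR-1808 for SSC2_8994), tomato (sly-miR5300 for SSCX_18278), platypus (oan-miR-1418-3p for SSC7_16050), mouse (mmu-miR-146a-3p for SSC8_16670) and silkworm (bmo-miR-2758-3p for SSC2_9365). The 3 low ones carry names from soybean (gma-miR1513a-5p for SSC12_1105), mouse (mmu-miR-1893 for SSC5_12933) and chicken (gga-miR-1658-3p for SSC9_16901). A seed name says that bases 2 to 8 are shared and nothing of the rest of the sequence.

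The 6 libraries held between 4441416 and 5373146 counted reads. The 3 most abundant sequences, miR-192, miR-143-3p and miR-215, took between 67.5% and 72.8% of the reads in the suckling libraries and between 53.5% and 65.8% in the weaning libraries. The first and the last of these mark intestinal epithelial cells, and miR-143 marks smooth muscle. The 4 epithelial markers listed, all detected in every library, summed to between 528020 and 563118 CPM (reads of a sequence per 1000000 counted reads of its library) in suckling and to between 220157 and 466488 in weaning. The 4 smooth muscle markers, all detected, summed to between 159118 and 204750 CPM in suckling and to between 201512 and 330034 in weaning, where W1 lay inside the suckling range. Of 5 leukocyte markers 4 were found, with sums between 281 and 470 CPM in suckling and between 457 and 777 in weaning, and the 3 red blood cell markers summed to between 451 and 604 CPM in suckling and between 455 and 622 in weaning. No marker found was at 0. The smooth muscle sum was nearly all miR-143-3p, which alone had 157308 CPM in S7 and 327838 in W7, the libraries with the lowest and highest sum. Most of the epithelial sum was miR-192 and miR-215, with 352827 and 198783 CPM in S1. These sums therefore do not show how the other markers moved. In bulk tissue, fewer cells of a type and less RNA per cell cannot be told apart, and the part of these shifts in the values below was not tested. Since CPM is a share of the library, values are also given with TMM scaling, which sets the libraries to a common level over most sequences.

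The candidates were rare. Together they had 48915 reads, or 0.170% of the 28772629 counted, against 99.8% for the known miRNAs. By library they had 8007, 6536 and 7469 reads in S1, S4 and S7 and 7512, 10781 and 8610 in W1, W4 and W7. W4 was highest and S4 lowest, and the groups overlapped because S1 lay above W1. The share of the library was 0.147% ± 0.0284 in suckling and 0.198% ± 0.0391 in weaning (mean ± SD, n = 3). With the 3 most abundant sequences left out of the library total, the shares were 0.503% ± 0.109 and 0.4999% ± 0.0240, so the groups differed by less than their spread.

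Few of the candidates carried most of the reads. The 10 with at least 1000 reads held 84.0% of the candidates' reads and the top 5 held 68.8%. Another 19 had from 100 to under 1000 reads (12.1%), 63 had between 10 and 99 (3.32%) and 74 had fewer than 10 (0.613%). The median candidate had 11 reads over all 6 libraries, against 1995 for a known miRNA.

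Detection followed abundance. All 29 candidates with at least 100 reads were seen in all 6 libraries, as were 30 of the 63 with 10 to 99 reads and 0 of the 74 below. In all, 59 candidates (35.5%) were seen in 6 libraries, 32 in 5, 20 in 4, 19 in 3, 28 in 2 and 8 in 1, while 99.6% of the known miRNAs were in all 6. The share of the known miRNAs was favoured by the minimum read total for a known name, so it is no measure of a difference from the candidates. Libraries held 117, 110 and 114 of the candidates in S1, S4 and S7 and 120, 133 and 121 in W1, W4 and W7. Every weaning library thus had more of them than any suckling library, 125 ± 7.23 against 114 ± 3.51. The gap remained when the number expected in the smallest library total was computed, 124 ± 7.45 against 109.6 ± 6.31, and the groups still did not overlap (118.5 was the lowest weaning value and 116.6 the highest suckling value). With at least 5 reads asked for, W1 and S4 had the same number (49), and with at least 10 reads S4 (38) was above W1 (33) and W7 (36), so the groups were not apart at these minimums. The other counted sequences detected numbered 327 to 338 in suckling and 327 to 344 in weaning libraries, with overlap. Most of these were known miRNAs, of which 238 of 239 were seen in all 6 libraries, so this number had little room to differ. Detection by library of the other kinds of candidate is not given here. W4, with the most, was also the library with the smallest share of reads in its 3 most abundant sequences. 8 candidates (4.82%) were seen only in suckling libraries and 14 (8.43%) only in weaning libraries. Of all 533 sequences these were 2.81% and 3.75%, and of the candidates at several precursors 6.25% and 6.25%. A count of 0 in a library allows up to 3 reads, or between 0.558 and 0.675 CPM, so these were not detectable at this depth in the other group and not shown to be absent. Such limits and all intervals given here cover counting error only, since the reads carry no molecular identifiers.

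**Figure D1:**
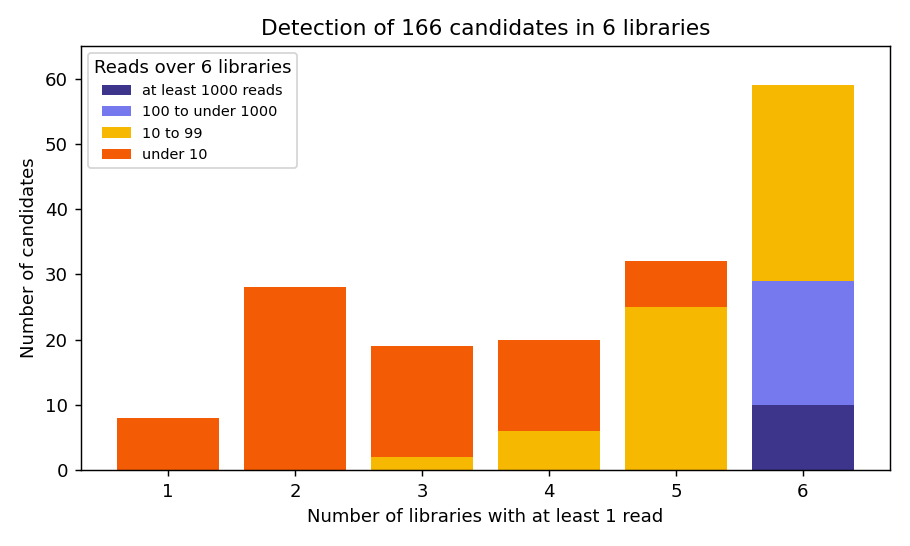
Number of candidates (vertical axis) by the number of libraries with at least 1 read (horizontal axis), with colours for the reads summed over the 6 libraries. The bar for 6 libraries holds 59 candidates, among them all 29 with at least 100 reads, and candidates with fewer than 10 reads fill the bars for 1 and 2 libraries.

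In sequence, the candidates differed from the known miRNAs beyond what the rule used. Their median length was 21 nt (range 18 to 25), against 22 nt for known miRNAs. 33 of them (19.9%) had the shortest length of 18 nt, as did 0 of the known miRNAs, and 48.8% were 21 to 23 nt long, against 87.9%. The other candidates lay between, with 12.9% at 18 nt and 64.5% at 21 to 23 nt for those with no seed name, and 14.6% and 58.3% for those at several precursors. Median GC content was 58.3%, against 47.6% for known miRNAs, 60.9% for single-precursor candidates with no seed name and 55.3% for candidates at several precursors. U, the usual first base of an animal miRNA, was the first base in 42.2% of the candidates, 48.1% of the known miRNAs, 54.8% of those with no seed name and 50% of those at several precursors. These are descriptions of the sequences, and no test was made.

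By the species that gave the seed name, 84 candidates had a mammalian name and 55.6% of the candidates' reads. 34 had a name from a plant or alga and 30.6% of the reads, most of them in SSC1_7592 and SSC5_12642. 25 had an invertebrate name (6.46%), 21 that of another chordate (7.34%) and 2 that of a virus (39 reads). Median reads were 11 for mammalian names and 7.5 for plant names. 20 of the 84 with a mammalian name were within 2 substitutions of a more abundant counted sequence, against 1 of the 34 with a plant name. By the prefix of the name, chromosome 2 had the most candidates (20), and the 7 on chromosome X had the most reads (15580).

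The candidates had 157 different seeds. 6 seeds were shared by 15 of them, and 12 candidates had bases 2 to 8 of a known pig miRNA in the same libraries. UGGACUU was shared by 4 candidates near miR-378. The seed named for gga-miR-1621-5p was shared by 3, SSC8_16494, SSC2_8782 and SSC2_9613, with 23, 16 and 2 reads. The other 4 seeds were shared by 2 candidates each, SSCX_18747 with SSC18_5784, SSC13_2364 with SSC3_10780, SSC10_433 with SSC14_3812 and SSC6_14283 with SSC9_17101. Among the 12, SSCX_18747 and SSC18_5784 had the seed of miR-378, SSC14_3524 that of miR-130a and miR-130b, SSCX_18480 that of miR-532-5p, SSC13_2521 that of miR-22-3p and SSC1_6809 that of miR-339-1-5p. SSC1_6192 (66 reads), SSC1_7366 (60 reads), SSC9_17062 (49 reads), SSC1_6707 and SSC13_2504 had the seeds of miR-143-3p, miR-574, miR-135, miR-146a-5p and miR-199a-1-3p.

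By the limit used here, almost as many of the candidates' reads stood in near copies as in all the rest. 24 candidates differed by at most 2 substitutions, over at least 16 aligned bases, from a more abundant counted sequence, and they held 23675 reads (48.4%). SSC14_3524 (1946 reads), with 3 substitutions to the deposited miR-301 entry, was not among them. Of these substitutions, C5G lies in the seed that is not used here, so it is uncertain which part held more reads. 17 of the 24 were closest to a known miRNA, 11 had the seed of the sequence they resembled, and 12 had at least 100 reads. The sources used here do not say how reads were divided between such similar sequences, so the levels of near copies as separate miRNAs are uncertain. The level relative to the more abundant sequence is therefore given with the main ones.

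miR-378, which in mammals lies in an intron of the gene for the transcriptional coactivator PGC-1 beta and is linked to lipid and energy metabolism, had 98122 reads. It had 10762, 11525 and 14571 reads in S1, S4 and S7 and 15191, 23450 and 22623 in W1, W4 and W7. All weaning libraries lay above all suckling libraries in reads. The 6 candidates with a miR-378 seed summed to 3497, 2013 and 2618 reads in S1, S4 and S7 and to 2499, 3990 and 3609 in W1, W4 and W7. Their summed level was 548 ± 207 CPM in suckling and 745 ± 184 CPM in weaning, with overlapping ranges since S1 lay above W1. With TMM scaling the order of the means turned, 648 ± 255 in suckling and 623 ± 105 in weaning.

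SSCX_18747 was the most abundant candidate. It had 2802, 1243 and 1684 reads in S1, S4 and S7 and 1633, 2802 and 2661 in W1, W4 and W7. S1 and W4 had the same number of reads, and S1 was the highest of the suckling libraries by far. Per 1000 reads of miR-378 it had 107.9 and 115.6 in S4 and S7, 107.5, 119.5 and 117.6 in W1, W4 and W7, and 260.4 in S1. The ratio to miR-378 was thus nearly the same in 5 libraries, and S1 alone stood apart from them. Without this candidate, the summed level of the other candidates with a miR-378 seed was 158 ± 14.7 CPM in suckling and 221 ± 39.3 CPM in weaning, and the ranges no longer overlapped (lowest weaning library 186, highest suckling library 174), as was so in CPM for 44.5% of all 290 sequences tested below. With TMM scaling they overlapped, from 182 to 189 in suckling and from 180 to 191 in weaning.

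SSC12_1507, the shortened miR-378 sequence, had 562, 627 and 754 reads in S1, S4 and S7 and 697, 975 and 773 in W1, W4 and W7. Per 1000 reads of miR-378 it had 52.2, 54.4 and 51.7 in the suckling libraries and 45.9, 41.6 and 34.2 in the weaning libraries. The ratio was lower in every weaning library than in any suckling library, with no test made of it. SSC18_5784 (80, 81 and 105 reads in suckling, 91, 113 and 103 in weaning) and SSC7_15044 (50, 57 and 62 in suckling, 62, 70 and 57 in weaning) showed the same order of ratios, from 7.03 to 7.43 against 4.55 to 5.99 and from 4.26 to 4.95 against 2.52 to 4.08. These ratios all have miR-378 as denominator and are not separate observations. miR-378 itself had 2169 to 2712 CPM in suckling and 3267 to 5207 CPM in weaning libraries. The share of all sequences with such an order is not given here. SSC5_12449, whose seed name is mmu-miR-3068-5p, kept close to miR-378 in all 6 libraries, at 3.25, 3.73 and 3.23 per 1000 in suckling and 3.36, 3.37 and 3.14 in weaning. SSC8_16508 was much lower, with 3, 4 and 8 reads in suckling and 11, 25 and 13 in weaning. SSC4_12162 had 18 reads in all.

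**Figure D2:**
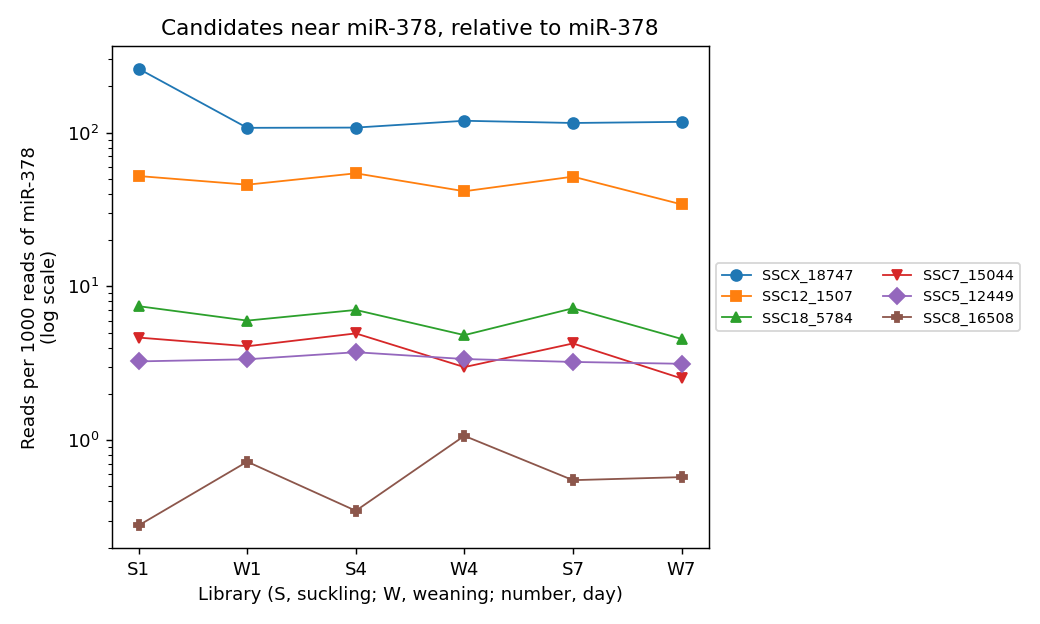
Reads of 6 candidates per 1000 reads of miR-378 (vertical axis, log scale) in each library (horizontal axis, S for suckling and W for weaning, with the day). SSCX_18747 lies between 107.5 and 119.5 in 5 libraries and at 260.4 in S1, while SSC5_12449 stays between 3.14 and 3.73.

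SSCX_18480 resembles miR-532-5p, which in mammals belongs to a cluster on the X chromosome with miR-500 and miR-362, and its own name places it on chromosome X. It had 133, 209 and 304 reads in S1, S4 and S7 and 173, 359 and 273 in W1, W4 and W7, while miR-532-5p had 908, 1033 and 1383 in the suckling and 1097, 1746 and 1284 in the weaning libraries. It had 19.5% as many reads as miR-532-5p over all libraries, the highest such figure among the near copies of a known miRNA with at least 100 reads, and the ratio varied 1.501-fold between libraries. In reads, both were lowest in S1 and highest in W4, while in CPM miR-532-5p was lowest in S4.

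In CPM, SSC12_1195 was the steadiest of the abundant candidates. It had 187, 193 and 223 reads in S1, S4 and S7 and 191, 203 and 201 in W1, W4 and W7, and its CPM varied 1.25-fold over the libraries. SSC13_2364 had 12, 28 and 26 reads in suckling and 21, 28 and 24 in weaning. The values of both overlapped between the groups in CPM. With TMM scaling SSC12_1195 was lower in every weaning library than in any suckling library, as were 10.0% of all 290 sequences tested below.

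miR-143-3p, abundant in smooth muscle, had 6491794 reads, and 4 candidates resembled it. SSC5_12871 had 245, 240 and 249 reads in S1, S4 and S7 and 286, 310 and 317 in W1, W4 and W7, which is 0.0254% of the reads of miR-143-3p. Every weaning library lay above every suckling library in reads and in CPM, as was so in CPM for 44.5% of all 290 sequences tested below. With TMM scaling the ranges of SSC5_12871 overlapped. SSC4_11765 had 22, 32 and 23 reads in suckling and 14, 38 and 32 in weaning. SSC1_6192 had 66 reads and SSC2_9451 had 13.

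SSC13_2521, near the widely expressed miR-22-3p, had 17, 51 and 24 reads in S1, S4 and S7 and 30, 17 and 12 in W1, W4 and W7. It was highest in S4, and its level varied 3.55-fold in CPM between libraries without separating the groups. SSC1_6809, near miR-339-1-5p, had 21, 20 and 20 reads in suckling and 14, 22 and 16 in weaning. SSC9_17062 had 49 reads against 65 for miR-135, from which it differs by U11C.

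Among the candidates that were no near copy, SSC14_3524 has the seed of the miR-130 family. It had 229, 248 and 334 reads in S1, S4 and S7 and 297, 446 and 392 in W1, W4 and W7. Its level was 53.3 ± 7.99 CPM in suckling and 83.7 ± 18.01 CPM in weaning, with every weaning library above every suckling library. Such an order held in CPM for 44.5% of all 290 sequences tested below, and the ranges of SSC14_3524 overlapped with TMM scaling. SSC8_16670, whose seed is that of miR-146a-3p, the less abundant arm of a miRNA that inflammatory signalling induces, had 109, 138 and 121 reads in suckling and 169, 197 and 143 in weaning. The known miR-146a-5p, the other arm of the miRNA that gave the seed name, had 807, 995 and 1975 reads in suckling and 1053, 2986 and 3135 in weaning. A shared seed does not make SSC8_16670 an arm of miR-146a. Its nearest more abundant counted sequence was 7 substitutions away.

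SSC1_7592 was the second most abundant candidate, with 1307, 1102 and 1180 reads in S1, S4 and S7 and 1231, 2230 and 990 in W1, W4 and W7. W4 was far above the other 5 libraries and W7 was the lowest in reads. SSC5_12642 had 733, 827 and 914 reads in suckling and 909, 1009 and 833 in weaning, and SSC2_8994 had 420, 395 and 530 in suckling and 616, 595 and 613 in weaning. The values of SSC2_8994 did not overlap between the groups in reads. In CPM SSC2_8994 and SSC5_12642 were higher in every weaning library, as were 44.5% of all 290 sequences tested below. With TMM scaling both overlapped, and SSC5_12642 was then lower in weaning, at 171 against 192. SSCX_18278 had 182, 175 and 195 reads in suckling and 191, 235 and 206 in weaning.

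SSC7_16050 had 218, 182 and 57 reads in S1, S4 and S7 and 217, 126 and 97 in W1, W4 and W7. The libraries of day 1 were the highest in both groups and those of day 7 the lowest, and the groups overlapped. SSC2_9365 had 139, 133 and 114 reads in suckling and 76, 170 and 140 in weaning, with W1 the lowest. SSC2_9050 (seed of mmu-miR-670-3p) had 62, 60 and 65 in suckling and 78, 115 and 71 in weaning, and SSC5_12858 (seed of dme-miR-285-5p) had 43 in each suckling library and 29, 54 and 49 in weaning.

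The remaining candidates with at least 100 reads had between 100 and 139. SSC12_1105 had 16, 14 and 13 reads in S1, S4 and S7 and 26, 34 and 36 in W1, W4 and W7. All weaning libraries were above all suckling libraries in reads and in CPM, as was so in CPM for 44.5% of all 290 sequences tested below. SSC5_12933, which consists of G and C alone, had 8, 10 and 7 reads in suckling and 16, 17 and 42 in weaning, so that W7 stood apart. SSC3_9725, SSC7_14886, SSC14_3286, SSC2_8299 and SSCX_18239 had between 8 and 37 reads in each library, and their values overlapped between the groups in reads.

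**Figure D3:**
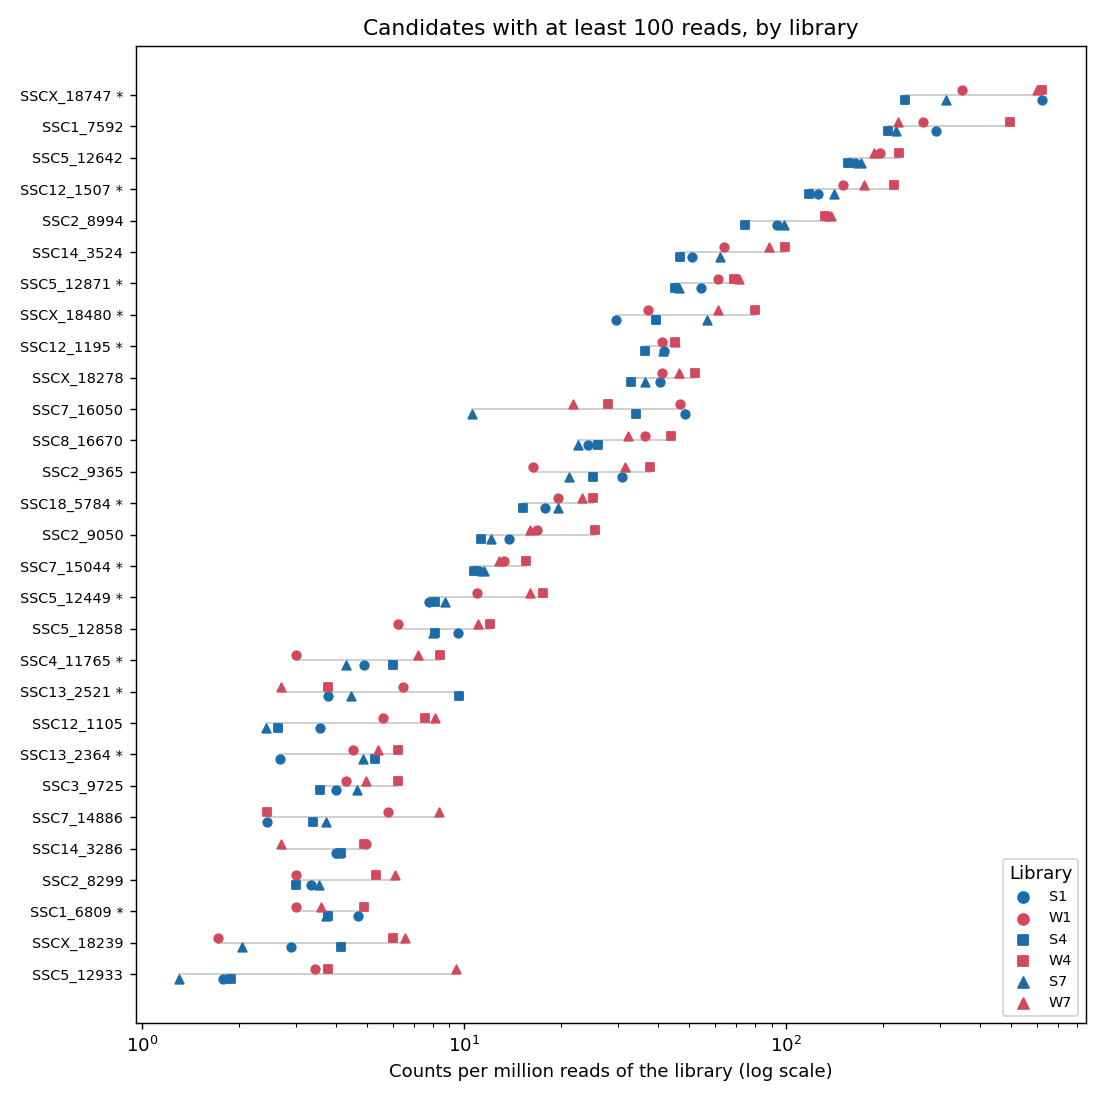
CPM (horizontal axis, log scale) of the 29 candidates with at least 100 reads in the suckling libraries (blue) and weaning libraries (red), with circles for day 1, squares for day 4 and triangles for day 7. An asterisk marks a candidate within 2 substitutions of a more abundant sequence, and W4 holds the highest value of 17 of the 29. The share of all sequences highest in W4 is not given.

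Over these 29 candidates the highest CPM divided by the lowest had a median of 2.12, and it was under 2 for 13 of them. Within the 3 suckling libraries the median was 1.30 and within the 3 weaning libraries 1.60. W4 had the highest CPM in 17 of the 29, W7 in 8, W1 in 1 and a suckling library in 3. The share of all sequences highest in W4 is not given here. Of all 244 sequences with at least 50 reads in W4 and S4 together, 90.2% had a higher CPM in W4 than in S4. With TMM scaling, W4 was highest in 1 of the 29. The TMM factor of W4 was 1.42, against 0.798 to 1.115 for the other libraries.

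The 3 weaning libraries were then compared with the 3 suckling libraries, which asks whether the mean level of a sequence differed between the groups. A change at all 3 ages is not required for such a difference. The comparison used edgeR's quasi-likelihood test on the 290 sequences that reached 10 reads in 3 or more libraries, of which 38 were candidates. The other 128 candidates had too few reads to enter. 0 of the 38 passed an adjusted p (Benjamini-Hochberg) of 0.05, as did 0 of all 290 in either direction (0.0%). Without W1, 12 of the 290 passed, without S7 1 did and with scaling to the library total 1 did, and 0 candidates were among them. SSC8_16508 entered the test only through the group where it is high, and apart from it the smallest edgeR adjusted p of a candidate was 0.256. At an unadjusted p under 0.05, 3 candidates, SSC8_16508 among them, were higher and 2 lower in weaning. Of all 290 sequences 6.21% were higher and 8.97% lower at that level. DESeq2 called 0 candidates and 14 of all sequences, with 2 candidates at an unadjusted p under 0.05. These p-values measure the spread between pools of different ages.

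The 5 candidates at an unadjusted p under 0.05 had between 64 and 139 reads each. 1 of them, SSC8_16508, the near copy of miR-378 with G11U, reached 10 reads in 0 suckling and 3 weaning libraries. It entered the test only through the group where it is high, so its 1.12 ± 0.433 TMM-scaled CPM in suckling and 2.94 ± 0.850 in weaning (SD, n = 3) are a description. SSC12_1105 was at 3.41 ± 0.845 and 5.99 ± 1.11, a log2 fold change of 0.82 (SE 0.27, edgeR adjusted p = 0.256). SSC5_12933 was at 1.98 ± 0.497 and 4.82 ± 3.19, a log2 fold change of 1.27 (SE 0.52, edgeR adjusted p = 0.312). SSC12_1105 reached 10 reads in all 6 libraries, and SSC5_12933 in 3 weaning libraries and 1 suckling library. For SSC5_12933 the weaning libraries alone met the filter, which favours a higher value in weaning. SSC12_1105 and SSC5_12933 were both higher in each weaning library than in any suckling library, and for SSC5_12933 the log2 fold change without W7 was 0.60.

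The other 2 were lower in weaning. SSC9_16901 had 13, 15 and 24 reads in S1, S4 and S7 and 13, 9 and 9 in W1, W4 and W7. Its log2 fold change was -1.03 (SE 0.31, edgeR adjusted p = 0.256). It reached 10 reads in 3 suckling libraries and 1 weaning library. The suckling libraries alone thus met the filter for SSC9_16901, which favours a lower value in weaning. SSC1_6809, the near copy of miR-339-1-5p, had a log2 fold change of -0.57 (SE 0.23, edgeR adjusted p = 0.312), and miR-339-1-5p itself had -0.20 (SE 0.12). Over the alternatives the adjusted p of these candidates other than SSC8_16508 ranged from 0.0775 to 0.842. DESeq2 gave all 5 none because of its filter on low counts. SSCX_18747, the most abundant candidate, had a log2 fold change of -0.08 (SE 0.37, edgeR adjusted p = 0.970), and without S1 it was 0.47.

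**Figure D4:**
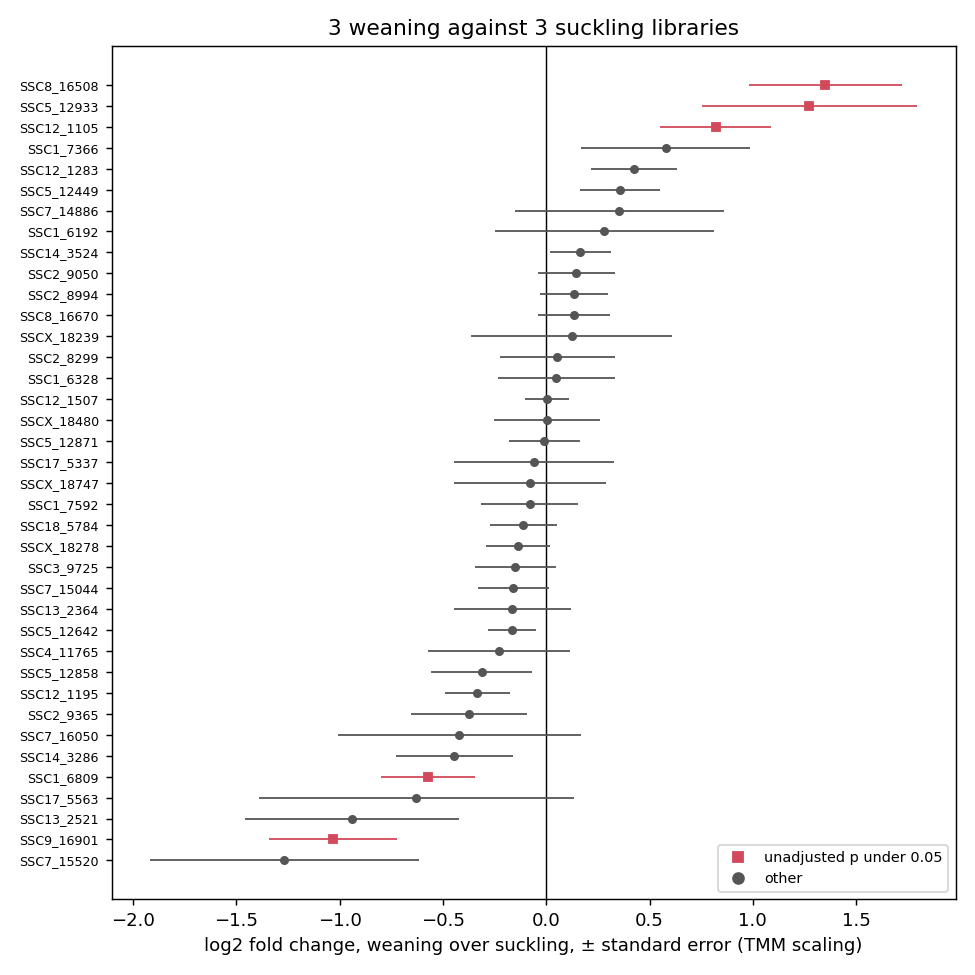
Log2 fold change of the 38 tested candidates, weaning over suckling with TMM scaling (horizontal axis), with bars of 1 standard error. The 5 squares have an unadjusted p under 0.05, and no candidate passed after adjustment over the 290 sequences.

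The direction of many candidates depended on the scaling. With TMM scaling the median log2 fold change was -0.07 for the 38 candidates and -0.01 for all 290 sequences, and 17 candidates were above 0. With scaling to the library total the medians were 0.46 and 0.48, and 33 of 38 candidates and 89.0% of all sequences were above 0. Against either median the candidates lay close to the rest of the table.

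The ranges of the groups did not overlap for 9 of the 38 candidates with TMM scaling. 5 were higher in weaning (SSC5_12449, SSC12_1105, SSC5_12933, SSC12_1283 and SSC8_16508), against 8.28% of all 290 sequences. 4 were lower (SSC12_1195, SSC3_9725, SSC1_6809 and SSC9_16901), against 10.0% of all sequences. In CPM, 16 were higher and 1, SSC9_16901, was lower, while 44.5% of all sequences were higher and 3.1% lower. SSC12_1195, SSC3_9725 and SSC1_6809 overlapped in CPM, so their separation depends on the scaling, while SSC9_16901 was lower and SSC5_12449, SSC12_1105, SSC5_12933, SSC12_1283 and SSC8_16508 were higher on both scales. The separation of SSC8_16508, SSC5_12933 and SSC9_16901 was favoured by the filter, which the group where each is higher met alone.

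Within a day there is 1 library a group, and only the ratio of CPM and its 95% counting interval were computed, for candidates whose pair of libraries held 50 reads or more. On day 1, 18 candidates were considered. In W1, 0 lay 2-fold or more above S1 and 0 as far below it, while 6.11% and 2.62% of all sequences did. The median log2 ratio was 0.22, against 0.28 for all sequences. SSC2_9365 (-0.92, interval -1.34 to -0.51) and SSCX_18747 (-0.83, interval -0.92 to -0.74) were the lowest. With TMM scaling both were past 2-fold, at -1.24 and -1.15, as were 3.93% of all sequences, and 0 candidates were past 2-fold in the other direction, against 2.18%.

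On day 4, 21 candidates were considered. 6 were at least 2-fold higher in W4 than in S4, against 33.6% of all sequences. SSCX_18747 (1.41, interval 1.31 to 1.51), SSC1_7592 (1.26, interval 1.15 to 1.36), SSC2_9050 (1.18, interval 0.71 to 1.65), SSC5_12449 (1.12, interval 0.56 to 1.69), SSC14_3524 (1.09, interval 0.86 to 1.32) and SSCX_18480 (1.02, interval 0.77 to 1.27) were these 6. miR-378 was at 1.26, miR-532-5p at 1.00, miR-130a at 1.01 and miR-130b at 1.08, which are the known miRNAs whose seeds or sequences 4 of these candidates resemble. The other considered candidates near miR-378 were lower than miR-378 on day 4, SSC12_1507 at 0.88 (interval 0.73 to 1.02), SSC18_5784 at 0.72 (interval 0.29 to 1.15) and SSC7_15044 at 0.53 (interval 0.01 to 1.07). SSC13_2521 was lower by more than 2-fold (-1.35, interval -2.23 to -0.53), as were 2.87% of all sequences, and miR-22-3p was at -0.18. The median of the candidates was 0.66, against 0.83 for all sequences.

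The high values of day 4 went with the scaling. With TMM scaling 0 candidates were past 2-fold upwards, against 4.1% of all sequences, and 2 were past it downwards, SSC13_2521 at -2.18 and SSC7_16050 at -1.13, against 9.02%. The median was -0.17 for the candidates and -0.01 for all sequences. The log2 ratios of CPM of the abundant miR-192 and miR-215 were -1.11 and -1.68 on day 4.

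On day 7, 21 candidates were considered. 2 were at least 2-fold higher in W7 than in S7, against 6.75% of all sequences. They were SSC7_14886 (1.16, interval 0.34 to 2.03) and SSC7_16050 (1.04, interval 0.56 to 1.54), and SSC7_16050 had been at -0.29 on day 4. 0 were at least 2-fold lower, against 3.8% of all sequences. The median was 0.46, above the 0.21 of all sequences, and all 21 ratios were above 0, as were 76.0% of those of all sequences. With TMM scaling the median was 0.19 against -0.06, and 14 of the 21 were above 0, against 46.0% of all sequences. 0 were then 2-fold higher or lower, against 3.38% and 8.02% of all sequences.

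**Figure D5:**
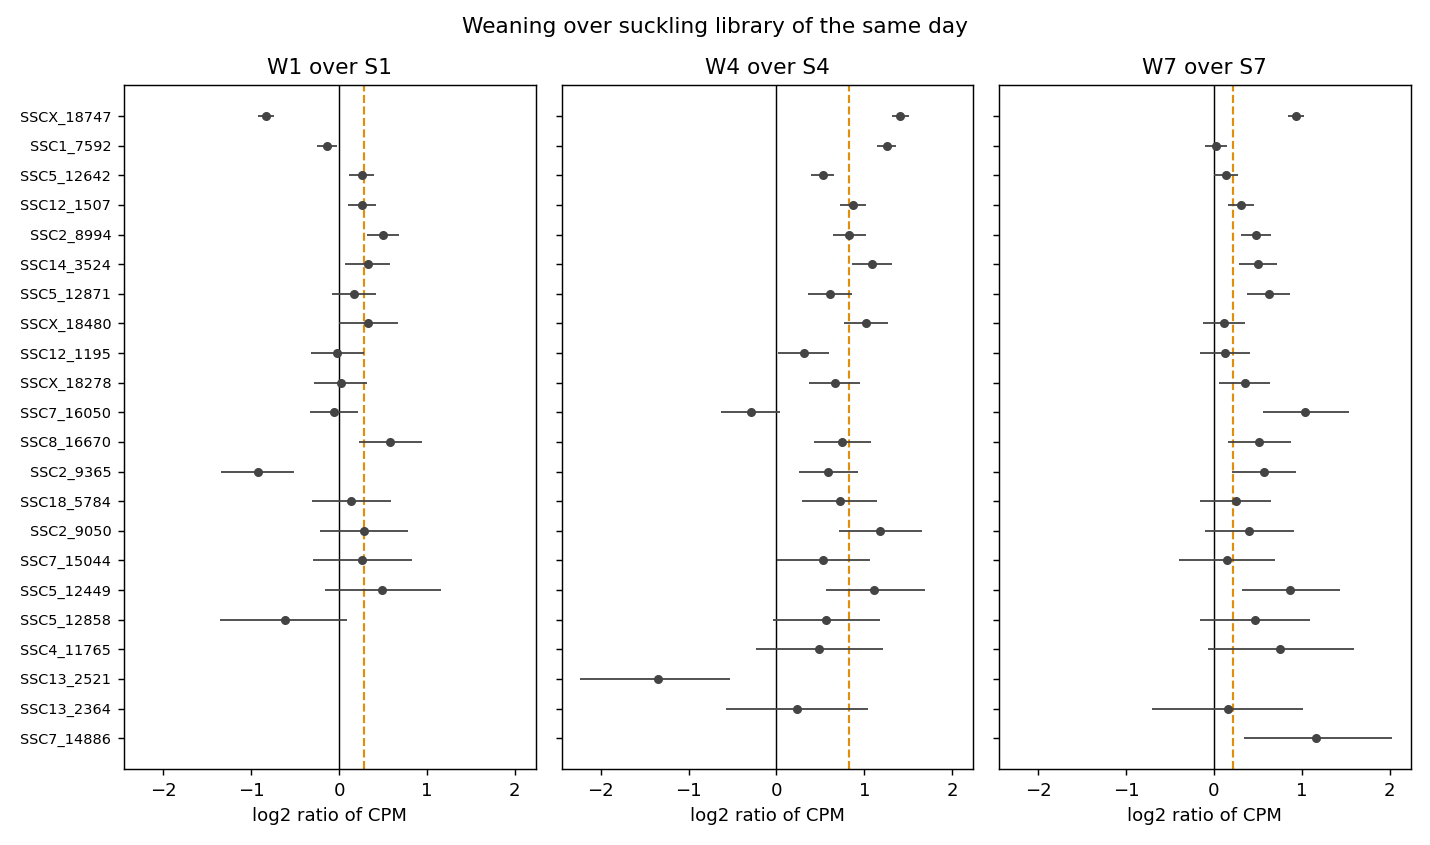
Log2 ratio of CPM, weaning over suckling library of the same day (horizontal axis), with 95% counting intervals, for candidates whose pair held 50 reads or more. The dashed line is the median of all sequences considered that day (0.28, 0.83 and 0.21), and SSCX_18747 lies below 0 on day 1 and above 0 on days 4 and 7.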

How the data were processed

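The authors extracted total RNA from jejunum, pooled 4 piglets per library, sequenced small RNA, cleaned the reads, aligned them without mismatches to the draft assembly Sscrofa 9.2 with Bowtie 0.12.2 (submitters' processing notes) and predicted candidate precursors. The deposited values are raw read counts, 1 file per library. The step from alignments to these tables was not given in the sources used here. An FPKM-based test, the study's own comparison, was not repeated.

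The files give sequences without names. Candidates were matched by identical sequence to the study's candidate table. Known miRNAs took the name whose 6 counts were the same in the study's table of known miRNAs (239 sequences, 134 of them also with aligned reads of that name). This match was made only for sequences with at least 20 reads over the 6 libraries, and 0 sequences were named by aligned reads alone. A rarer known miRNA would thus stand among the sequences with no name. Where a sequence stood on several lines (54 sequences), the highest count was used. No genome of the files' build was used, so no coordinates are given beyond the chromosome in a candidate's name.

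CPM used the library total over 1 line per sequence. Weaning and suckling libraries were compared with edgeR 4.0.16 in R 4.3.3 (quasi-likelihood test, TMM scaling, Benjamini-Hochberg adjustment over all sequences reaching 10 reads in 3 or more libraries, threshold 0.05), and with DESeq2 1.42.0 as an alternative. Ratios within a day, for sequences with at least 50 reads in the pair, have exact conditional binomial intervals of 95% (Python 3.11.15, scipy 1.17.1) and were counted at a fold of 2. The scripts were tested on simulated counts. Libraries with the same number share the sampling day in the labels, and the piglets came from the same litters in the study's methods, so a fit with the day as block was tried. Deviations of same-day libraries correlated at 0.0386 on day 1, -0.195 on day 4 and -0.00399 on day 7 over 290 sequences. Candidates with at least 100 reads are named with values, and others only as near copies, by a shared seed or as an extreme. SSC12_1283 and SSC9_16901 are named from a count of few. Alternatives were other scalings, filters, denominators and thresholds, the day as a block and leaving out each library. An item that some candidates resemble is not reported here. The candidates and lists were chosen with earlier results of these data known.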

Additional observations from a re-analysis of the deposited data

Results flagged for a closer look

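The log2 ratio of weaning over suckling CPM of SSCX_18747, the most abundant candidate, was -0.83 on day 1, 1.41 on day 4 and 0.93 on day 7, with counting intervals on opposite sides of 0. With TMM scaling the values were -1.15, 0.57 and 0.66. SSC1_7592 also had opposite signs on days 1 and 4, at -0.14 (-0.46 with TMM scaling) and 1.26 (0.42). On day 7 it was at 0.02 (interval -0.10 to 0.14), and at -0.25 with TMM scaling. Each day has 1 library a group, so the difference between days was not tested. For SSCX_18747 the day 1 value rests on S1, where it had 260.4 reads per 1000 reads of miR-378 against 107.5 to 119.5 in the other 5 libraries. For SSC1_7592 the day 4 value rests on W4, which had 2230 reads against 990 to 1307 in the other 5.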

How the results depend on the processing

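The count of 0 candidates passing the test was the same in all 11 alternatives. Among them were every left-out library and the replicate block, which also gave 0 calls and changed no other call. DESeq2 was among them too, and it gave no adjusted p to the 5 candidates with an unadjusted edgeR p under 0.05, so it could not call them. Ranges did not overlap for 9 of 38 candidates (53 of all 290 sequences), for 17 with scaling to the library total (138 of 290), for 15 of 166 with no filter (65 of 533), and for 11 to 16 when a library was left out (14 without W1 and 16 without S7, beside 103 and 98 of 290, where fewer libraries leave less room to overlap). The numbers at least 2-fold apart on days 1, 4 and 7 were 0, 7 and 2. They became 2, 2 and 0 with TMM scaling, with DESeq2 size factors and with the 3 most abundant sequences left out of the total, and 2, 14 and 8 with at least 20 reads in the pair. Of all sequences, 8.73%, 36.5% and 10.5% were 2-fold apart on days 1, 4 and 7, 6.11%, 13.1% and 11.4% with TMM scaling, and 10.8%, 37.9% and 14.7% with at least 20 reads. With at least 100 reads day 7 gave 1 of 17 candidates, against 9.95%.

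The share of reads was 0.503% in suckling and 0.4999% in weaning without the 3 most abundant sequences, 0.108% and 0.146% without SSCX_18747, and 0.131% to 0.159% and 0.178% to 0.217% when a library was left out. Candidates detected per suckling library numbered 109.6 after thinning. At a minimum of 5 reads the means were 46.7 in suckling and 52.3 in weaning, and with a library left out 112 to 115.5 and 120.5 to 127. The summed miR-378 level was 158 and 221 CPM without SSCX_18747, and 433 to 633 and 675 to 849 with a library left out. The log2 fold change of SSCX_18747 (-0.08) turned to 0.43 with scaling to the library total, 0.017 with no filter, 0.043 with the replicate block, 0.47 without S1 and 0.13 without W1, within a range of -0.32 to 0.47. Apart from what the left-out libraries themselves show, the cause of these changes was not tested.

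Depth limits these results, since 128 of 166 candidates had too few reads to be tested and 39 had at most 3 reads in all. Each library is 1 pool, and age differs among the libraries of a group.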
